A study of Homo sapiens with 6 samples.

Results

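The genes described here encode the small noncoding RNAs of the nucleus: small nuclear RNAs (snRNAs), small nucleolar RNAs (snoRNAs) and small Cajal body RNAs (scaRNAs). They were taken from the deposited count table by 3 conditions, an annotated biotype of snRNA, scaRNA or snoRNA, a mean count of 20 or more over the 6 libraries, and the exclusion of RN7SK. Of 30270 genes in the table, 224 carried these biotypes and 42 met the conditions, namely 14 of 89 snRNA genes, 5 of 14 scaRNA genes and 23 of 121 snoRNA genes. The genes were thus chosen by a measured value, their mean count over both groups, and not by the difference between the groups. Just inside it lay SNORA79B at a mean count of 21.3, SNORA22 at 25.6 and RNU4ATAC18P at 28.2, and just outside it lay SNORD91B and AL355802.2, both at 17.2, and SNORA70 at 15.4. Of the 42 genes 4 met the minimum through the WT libraries alone, with mean counts in ΔTUT4/7 close to 0 for SNORD3D and SCARNA12, 18 for RNU4ATAC18P and 17.3 for SNORA79B, so a lower level in ΔTUT4/7 is built into their choice and counts are also given over the other 38 genes. The 39 genes listed at a single locus were 126 to 791 bases long, with a median of 191. The 182 genes of these biotypes under the minimum had a median of 133 bases. Of these, 58 were shorter than 126 bases, with mean counts of at most 9.17. How well RNAs of each length were recovered was not tested, so a level here is not the amount of the mature RNA.

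Total RNA of HEK 293T, an immortalized line from human embryonic kidney, was sequenced after ribosomal RNA had been reduced. The 3 libraries labelled wildtype (WT) were compared with 3 labelled as a double knockout of TENT3A/B, the uridylyltransferases TUT4 and TUT7 (ΔTUT4/7), and no treatment was given to either group. The libraries are biological replicates of 1 line per genotype, and the knockout line had been made in earlier work, so p-values measure the spread between cultures of these lines and not between independently made knockouts. The question addressed was how loss of both enzymes, which add uridines to RNA 3′ ends, alters RNA abundance.

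snRNAs form the RNA core of the spliceosome, in which U1 recognises the 5′ splice site and U2 the branch point. snoRNAs guide chemical modification of ribosomal RNA, by ribose methylation in the box C/D class and by pseudouridylation in the box H/ACA class, and a few, such as U3 and U17, act in cleavage of the ribosomal RNA precursor. scaRNAs guide the same modifications on snRNAs in Cajal bodies, and in human cells most snoRNAs and scaRNAs are cut out of introns of a host gene, while U1, U2 and U3 are transcribed from promoters of their own.

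Sequences of the genes on which the results turn are given here from the hg38 genome, on the strand of each gene and over the range given in the count table. The first set shows how alike the U1 genes are, most of which share every letter. RNU1-1 (chr1:16514122-16514285, minus strand) is shown beside the other sequences found among the 10 U1 genes, that of RNVU1-28 (chr1:144560666-144560829, minus strand) by G37T and that of RNVU1-7 (chr1:148038753-148038916, minus strand) by T150C, with RNU1-1 letters first, positions counted from 1 at the 5′ end and the differing base in capitals. RNU2-2P (chr11:62841619-62841809, minus strand), the U2 gene with the largest decrease among the snRNA genes, follows.
RNU1-1: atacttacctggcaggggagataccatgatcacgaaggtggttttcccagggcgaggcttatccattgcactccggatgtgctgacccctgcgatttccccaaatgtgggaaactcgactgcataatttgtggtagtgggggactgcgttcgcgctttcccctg
RNVU1-28: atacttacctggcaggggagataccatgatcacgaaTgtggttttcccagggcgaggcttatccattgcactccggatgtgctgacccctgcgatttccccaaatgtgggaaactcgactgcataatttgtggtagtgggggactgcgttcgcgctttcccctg
RNVU1-7: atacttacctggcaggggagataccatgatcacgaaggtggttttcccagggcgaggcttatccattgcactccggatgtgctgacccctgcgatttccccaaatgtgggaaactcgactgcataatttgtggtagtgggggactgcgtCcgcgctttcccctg
RNU2-2P: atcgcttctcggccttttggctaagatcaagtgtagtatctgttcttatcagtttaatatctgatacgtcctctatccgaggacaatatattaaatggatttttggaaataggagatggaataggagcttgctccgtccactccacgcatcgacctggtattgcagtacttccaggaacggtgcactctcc

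The second set shows genes of the guide RNAs that differed between the groups or stand for a copy family, and SCARNA5 as the highest scaRNA gene per length. SNORD17 (chr20:17962710-17962946, minus strand), SNORD3D (chr17:19112419-19112636, minus strand) and SCARNA5 (chr2:233275727-233276002, plus strand) are printed with every TGATGA and CTGA in capitals, the letters of the C and D boxes that bind the box C/D proteins. SNORA23 (chr11:9428773-9428954, plus strand) and SNORA73A (chr1:28507366-28507571, plus strand) are printed with the ACA that lies 3 bases before the end in capitals, which gives the H/ACA class its name, and SNORA71A (chr20:38427309-38427442, minus strand) had no ACA at exactly that place before its annotated end.
SNORD17: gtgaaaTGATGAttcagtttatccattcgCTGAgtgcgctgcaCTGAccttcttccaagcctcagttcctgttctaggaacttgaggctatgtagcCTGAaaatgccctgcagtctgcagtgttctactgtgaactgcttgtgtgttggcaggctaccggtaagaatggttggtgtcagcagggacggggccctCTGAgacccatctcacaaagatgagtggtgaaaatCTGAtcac
SNORD3D: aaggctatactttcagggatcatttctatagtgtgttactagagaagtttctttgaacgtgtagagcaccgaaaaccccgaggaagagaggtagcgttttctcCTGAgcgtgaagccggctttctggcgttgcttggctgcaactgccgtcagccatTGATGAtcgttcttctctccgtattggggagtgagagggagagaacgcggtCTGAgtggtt
SCARNA5: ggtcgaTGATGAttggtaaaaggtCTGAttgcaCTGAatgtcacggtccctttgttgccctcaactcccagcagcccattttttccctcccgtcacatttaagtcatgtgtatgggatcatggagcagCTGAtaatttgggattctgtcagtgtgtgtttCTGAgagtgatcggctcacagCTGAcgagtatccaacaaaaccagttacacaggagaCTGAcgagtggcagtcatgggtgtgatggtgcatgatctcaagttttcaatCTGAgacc
SNORA23: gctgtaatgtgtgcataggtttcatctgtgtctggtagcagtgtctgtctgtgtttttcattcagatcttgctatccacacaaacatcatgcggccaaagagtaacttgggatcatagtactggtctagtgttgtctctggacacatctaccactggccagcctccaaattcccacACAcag
SNORA73A: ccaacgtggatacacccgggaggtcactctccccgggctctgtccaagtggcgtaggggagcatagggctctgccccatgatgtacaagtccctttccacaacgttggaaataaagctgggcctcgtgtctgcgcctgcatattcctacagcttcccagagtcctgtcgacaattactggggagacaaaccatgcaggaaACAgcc
SNORA71A: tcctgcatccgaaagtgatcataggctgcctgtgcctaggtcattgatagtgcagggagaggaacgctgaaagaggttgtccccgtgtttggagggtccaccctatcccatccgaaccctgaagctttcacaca

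The letters TGATGA on the gene's own strand were found in all 7 box C/D genes with a single locus, in 4 of the 5 scaRNA genes and in none of the 11 single-locus H/ACA genes or the 14 snRNA genes. All of the 7 box C/D genes but SNORD17 and SNORD15B are U3 copies, which match SNORD3D with 2 to 4 mismatches. The 7 are thus not independent sequences. TGATGA occurred in 4.0% of 35116 promoter windows of 200 bases, read on 1 strand. The U3 ranges other than that of SNORD3D, at 581 to 791 bases, were longer than these windows. CTGA, which overlaps TGATGA in the run CTGATGA, was in all 7 box C/D genes but also in 58.2% of the windows. ACA at 3 bases before the end was found in 6 of the 11 H/ACA genes and in 1.24% of the windows. These matches describe letters only.

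The targeted genes gave an unequal check of the labels. TUT7 was lower in the ΔTUT4/7 libraries, at 26.3 ± 1.04 CPM (counts-per-million of the TMM-scaled library size; SD, n = 3) against 62.6 ± 2.17 in WT, a log2 fold change of −1.25. TUT4 was higher, at 906 ± 21.4 against 211 ± 5.08 CPM, a log2 fold change of 2.10. A count over a whole gene does not show whether the RNA is intact, and where TUT4 was edited was not given in the labels, so ΔTUT4/7 stands throughout for libraries so labelled and every direction rests on that label. Markers of the line were detected and differed between the groups, with VIM at 496 ± 22.9 CPM in WT and 1250 ± 5.77 in ΔTUT4/7, KRT18 at 30.5 ± 1.78 and 44.3 ± 1.42, and CDH2 at 26.5 ± 0.839 and 60.2 ± 1.74 (log2 fold changes of 1.33, 0.54 and 1.19, each called higher). PAX2, LHX1 and KRT8 were at 2.15, 3.91 and 9.96 CPM in WT and called lower, at −0.56, −0.98 and −1.54, and of 5 markers of other cells only COL1A1 passed the count filter and was lower, at −1.45. The part of these differences in the results on small RNA genes was not tested.

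Libraries held between 18757228 and 33148937 counts, of which the 42 genes took 0.0382% to 0.0718%, and the share was highest in WT replicate 3. That library stood apart for these genes. It was the highest of the 3 WT libraries for 34 of the 42 genes, 81.0%, against 32.9% of all tested genes, and its level was a median of 1.58 times the mean of WT replicates 1 and 2, against 0.994 for all tested genes. By biotype the median was 1.96 for snRNA, 1.51 for scaRNA and 1.25 for snoRNA genes. It was also above WT replicates 1 and 2 for 117 of 223 other genes of at most 400 bases that reached the same mean count, at a median ratio of 1.15. Among other short noncoding RNAs, WT replicate 3 was the highest WT library for RN7SK, RN7SL1, RN7SL2, RMRP, RPPH1 and RNY1. RN7SL1 measured 4477, 3957 and 6825 CPM and RMRP 1753, 1281 and 2632 CPM in WT replicates 1 to 3. For TERC it was the lowest, at 0.685 CPM beside 1.32 and 1.62. Across the 40 genes other than SNORD3D and SCARNA12 the median coefficient of variation was 35.7% over the WT libraries, 9.76% over WT replicates 1 and 2, and 20.4% over the ΔTUT4/7 libraries, where all genes at this level gave 7.46%, 5.99% and 6.53%. Results are therefore given with and without that library. What set it apart was not tested.

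As sums, the snRNA and scaRNA genes lay lower in every ΔTUT4/7 library than in any WT library, and the snoRNA genes overlapped. The snRNA genes summed to 151, 129 and 270 CPM of the unscaled library total in WT replicates 1 to 3 and to 90.2, 64.0 and 90.7 in ΔTUT4/7. Every WT library was above every ΔTUT4/7 library, and the ΔTUT4/7 mean was 0.445 of the WT mean, or 0.583 of it without WT replicate 3. The scaRNA genes summed to 105, 107 and 155 in WT and to 72.9, 89.7 and 74.8 in ΔTUT4/7, again with no overlap, and at 0.647 of the WT mean, or 0.745 without that library. The snoRNA genes summed to 231, 211 and 294 in WT and to 219, 241 and 226 in ΔTUT4/7, with overlap and a ratio of 0.930, or 1.03 without that library. On the TMM-scaled library size the ratios were 0.480, 0.700 and 1.01 for snRNA, scaRNA and snoRNA genes, and 0.635, 0.813 and 1.13 without WT replicate 3, when all 3 ΔTUT4/7 snoRNA sums (226, 253 and 235 CPM) lay above WT replicates 1 and 2 (221 and 202). The snoRNA sum includes the 6 U3 genes, of which 4 had a positive log2 fold change and 2 a negative one. SNORD3C alone measured 68.9 CPM in WT and 85.4 in ΔTUT4/7, where the TMM-scaled snoRNA sums had means of 237 and 238. The snoRNA genes without U3 were not summed, so the overlap does not describe those genes. In bulk RNA a lower number of cells with an RNA and less of it per cell cannot be told apart.

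**Figure D1:**
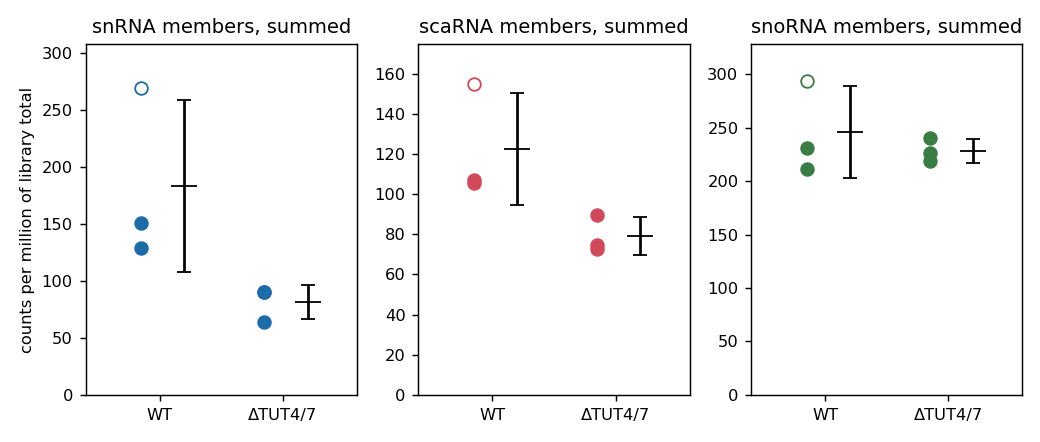
Summed CPM of the library total (y axis, from 0) of the 14 snRNA, 5 scaRNA and 23 snoRNA genes in each WT and ΔTUT4/7 library. Points are libraries, the open point is WT replicate 3, and the dash with bars is the mean ± SD of 3 libraries. WT lies above ΔTUT4/7 in every library for snRNA and scaRNA, while the snoRNA groups overlap. The snoRNA sum includes the U3 genes.

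Gene by gene, the edgeR quasi-likelihood test with Benjamini-Hochberg adjustment over 23952 genes at an FDR of 0.05 called 3 of the 42 genes higher in ΔTUT4/7 and 6 lower. Over all tested genes 57.7% were called, 28.6% higher and 29.0% lower, so these counts were below the background. The log2 fold change was negative for 30 genes and positive for 12, with a median of −0.63, where the median of all tested genes was −0.02. For 28 of the 42 genes no WT value lay within the ΔTUT4/7 range or the reverse, with all WT libraries above in 21 and all ΔTUT4/7 libraries above in 7, where the background was 62.7% without overlap, 31.8% with WT above and 30.9% with ΔTUT4/7 above. Among the 38 genes whose mean count reached 20 in each group, 3 were called higher and 5 lower. Without WT replicate 3, 5 genes were called higher and 18 lower of 40 tested, the median was −0.43, and 56.7% of all genes were called, 28.3% in each direction. As 10 of those 18 were U1 genes, most with identical counts, taking 1 gene per set of equal counts left 12 lower of 34 and a median of −0.23. The DESeq2 Wald test, as an alternative on all 6 libraries, called 4 genes higher and 21 lower, or 15 lower with 1 gene per set of equal counts, where it called 26.2% of all genes higher and 25.6% lower.

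By biotype the snRNA genes had the lowest median. Of the 14 snRNA genes none was called higher and 2 lower, with a median log2 fold change of −1.02, and without WT replicate 3 the count was 12 lower with a median of −0.61, where 28.3% of all genes were lower. Of those 12 genes 10 were U1 genes, and with 1 gene per set of equal counts 6 of 8 snRNA genes were lower. Of the 5 scaRNA genes 1 was called lower, with a median of −0.64, and 3 without that library, with a median of −0.42. Of the 23 snoRNA genes 3 were called higher and 3 lower, with a median of −0.26 that became 0.06 without it, when 5 were called higher and 3 lower. The sign of that median rested on the genes that entered through WT alone, as it was 0.14 over the 20 snoRNA genes that reached the minimum in each group. Within that biotype the 8 box C/D genes had 2 called higher and 1 lower, and the 13 H/ACA genes 1 higher and 2 lower. No test of one biotype against another was made.

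**Figure D2:**
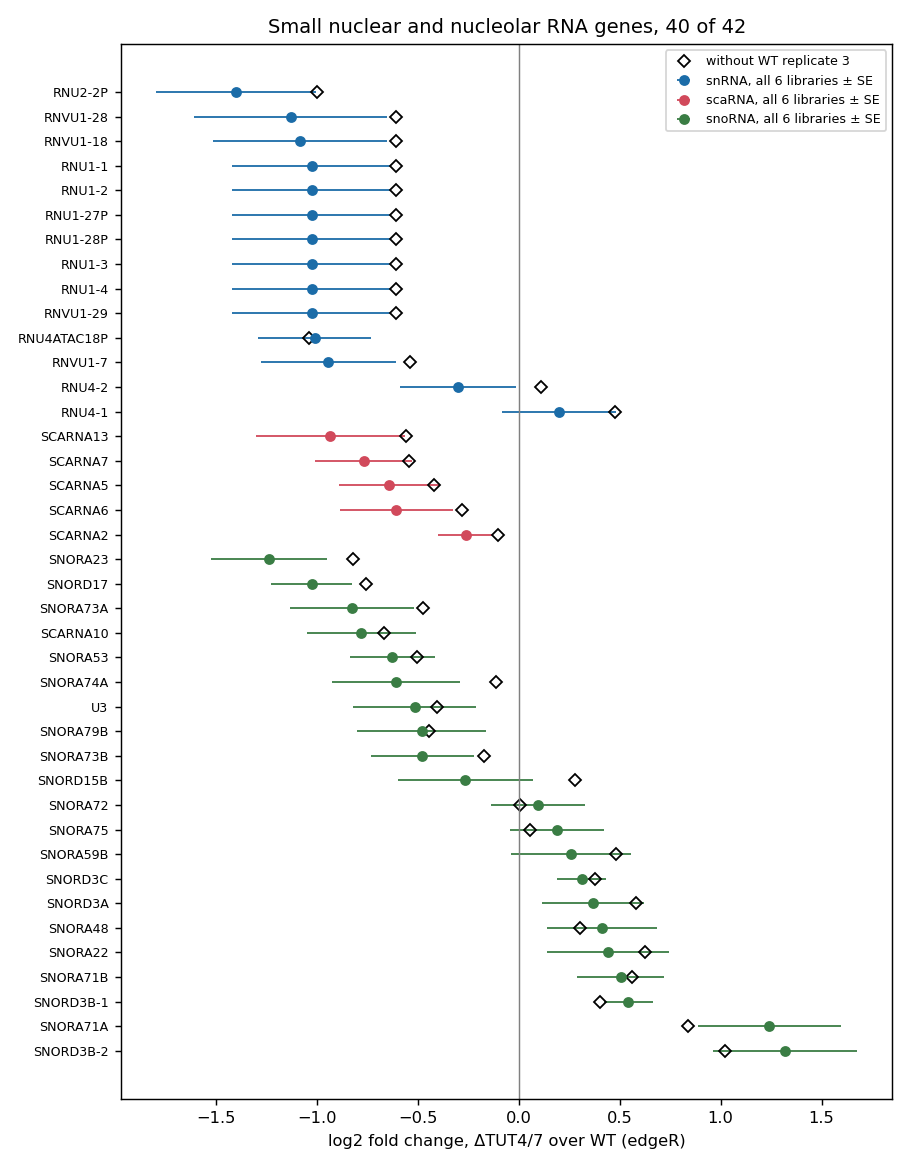
Log2 fold change of ΔTUT4/7 over WT (x axis) for 40 of the 42 genes, ordered within biotype. Filled points with bars are the edgeR estimate ± SE over 6 libraries and open diamonds are the estimate without WT replicate 3. SNORD3D and SCARNA12, which had counts in WT replicate 3 alone, are not drawn. The snRNA and scaRNA points lie left of 0 except RNU4-1, and RNU4-2 moves across 0 without that library.

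The U1 genes were the largest copy family and stood lower in every ΔTUT4/7 library. RNU1-1 measured 11.7, 10.2 and 21.4 CPM in WT replicates 1 to 3 and 8.18, 5.26 and 7.81 CPM in ΔTUT4/7. The groups did not overlap, but WT replicate 3 was 1.96 times the mean of the other WT libraries, and the log2 fold change of −1.02 ± 0.39 (SE) did not pass, with an adjusted p of 0.0879. Without that library it was −0.61 with an adjusted p of 0.00315. All 10 U1 genes behaved alike, with log2 fold changes of −0.94 to −1.13 and adjusted p from 0.0674 to 0.112, none of which passed, and all 10 passed without WT replicate 3, at −0.54 to −0.61.

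The 10 U1 rows are not 10 measurements. RNU1-1, RNU1-2, RNU1-3, RNU1-4, RNU1-27P, RNU1-28P and RNVU1-29 held the same count in every library, as the estimation shares reads between copies, so the 42 genes gave 36 distinct patterns. RNVU1-18 has the same 164 letters and the same counts in the other libraries, and differed in WT replicate 3, with 708 estimated counts against 657 for RNU1-1. Summed to 1 row with the remaining annotated U1 genes, an alternative added after seeing the data, U1 measured 111, 99.0 and 210 CPM in WT and 80.7, 54.6 and 77.5 CPM in ΔTUT4/7. The groups again did not overlap and the log2 fold change was −0.98 ± 0.39, with an adjusted p of 0.0987, and −0.56 with an adjusted p of 0.102 without WT replicate 3. By DESeq2 on all 6 libraries both RNU1-1 and the summed row were called lower, with adjusted p of 0.0201 and 0.0277, so the call for U1 depended on the tool, on the libraries and on how copies were counted.

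RNU2-2P, a U2 gene, was called lower, with 29.5, 21.5 and 49.1 CPM in WT and 11.5, 11.7 and 15.4 CPM in ΔTUT4/7. All WT libraries were above all ΔTUT4/7 libraries, a 2.60-fold difference of means with a log2 fold change of −1.40 ± 0.40 and an adjusted p of 0.0400. The adjusted p was 0.000416 without WT replicate 3, at −0.997, but 0.0798 without WT replicate 1 and 0.0833 to 0.129 without any 1 ΔTUT4/7 library, at log2 fold changes of −1.31 to −1.54. RNU4ATAC18P, a pseudogene copy of the minor spliceosomal U4atac named here as the only other snRNA gene called, measured 1.53, 1.54 and 1.47 CPM in WT and 0.905, 0.567 and 0.715 CPM in ΔTUT4/7. WT replicate 3 did not stand apart there, and the log2 fold change was −1.01 ± 0.28 (adjusted p = 0.00378), with estimated counts of 11 to 45 per library. Since this gene met the minimum through WT alone, its direction is given as a description. It lies within SOD2, which measured 183 CPM in WT and was itself called lower, at −0.39 ± 0.04. In the limma comparison with host genes given below, RNU4ATAC18P did not differ from SOD2, at −0.60 ± 0.27 (adjusted p = 0.158).

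The U4 genes, whose RNA pairs with U6 in the spliceosome, did not pass. RNU4-1 measured 1.32, 0.846 and 1.70 CPM in WT and 1.498, 1.19 and 1.79 CPM in ΔTUT4/7, and the log2 fold change was 0.20 ± 0.28. RNU4-2 measured 1.93, 1.46 and 3.26 CPM in WT and 1.84, 1.34 and 2.30 CPM in ΔTUT4/7, with a log2 fold change of −0.30 ± 0.29 that was 0.11 without WT replicate 3. Both overlapped between the groups, and the genes share 97.2% of the letters of 141 bases, so that reads between them are uncertain. RNU11, RNU12, RNU4ATAC, RNU6ATAC and RNU7-1 were not among the 42 genes.

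The scaRNA genes had negative log2 fold changes throughout, and 1 of them passed. SCARNA7, a box C/D guide, measured 16.4, 18.2 and 26.0 CPM in WT and 11.4, 14.8 and 9.81 CPM in ΔTUT4/7. The groups did not overlap, with a log2 fold change of −0.77 ± 0.24 and an adjusted p of 0.0378, and of 0.00315 without WT replicate 3 at −0.54. The call was lost without WT replicate 2 (adjusted p = 0.0649), without ΔTUT4/7 replicate 1 (0.130) and without ΔTUT4/7 replicate 3 (0.0833).

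SCARNA5, per length the highest of the scaRNA genes at 142 CPM per kilobase in WT, measured 31.4, 35.6 and 50.4 CPM in WT and 22.8, 30.7 and 22.7 CPM in ΔTUT4/7. No library overlapped, but the log2 fold change of −0.64 ± 0.25 had an adjusted p of 0.0898, and of 0.0194 without WT replicate 3. SCARNA13 measured 7.89, 7.96 and 14.8 CPM in WT and 4.27, 7.27 and 5.01 CPM in ΔTUT4/7, at −0.93 ± 0.37 with an adjusted p of 0.0889, and of 0.0160 without that library. SCARNA6 and SCARNA2 overlapped between the groups, at −0.60 ± 0.28 and −0.26 ± 0.14.

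SCARNA2 lies within AL356488.2, an annotated gene that overlaps it, so reads could be split between them. Summed with that gene, after seeing the data, it measured 61.0, 50.7 and 73.8 CPM in WT and 53.7, 64.9 and 55.1 CPM in ΔTUT4/7, and the log2 fold change was −0.10 ± 0.17 and 0.04 without WT replicate 3. SCARNA10 and SCARNA12 are scaRNAs by symbol but carried the snoRNA biotype. SCARNA10 measured 26.2, 35.8 and 39.0 CPM in WT and 19.1, 25.7 and 14.6 CPM in ΔTUT4/7, without overlap, and its log2 fold change of −0.78 ± 0.27 had an adjusted p of 0.0671. SCARNA12 had 217 counts in WT replicate 3 and almost none in the other libraries, so no fold is given.

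**Figure D3:**
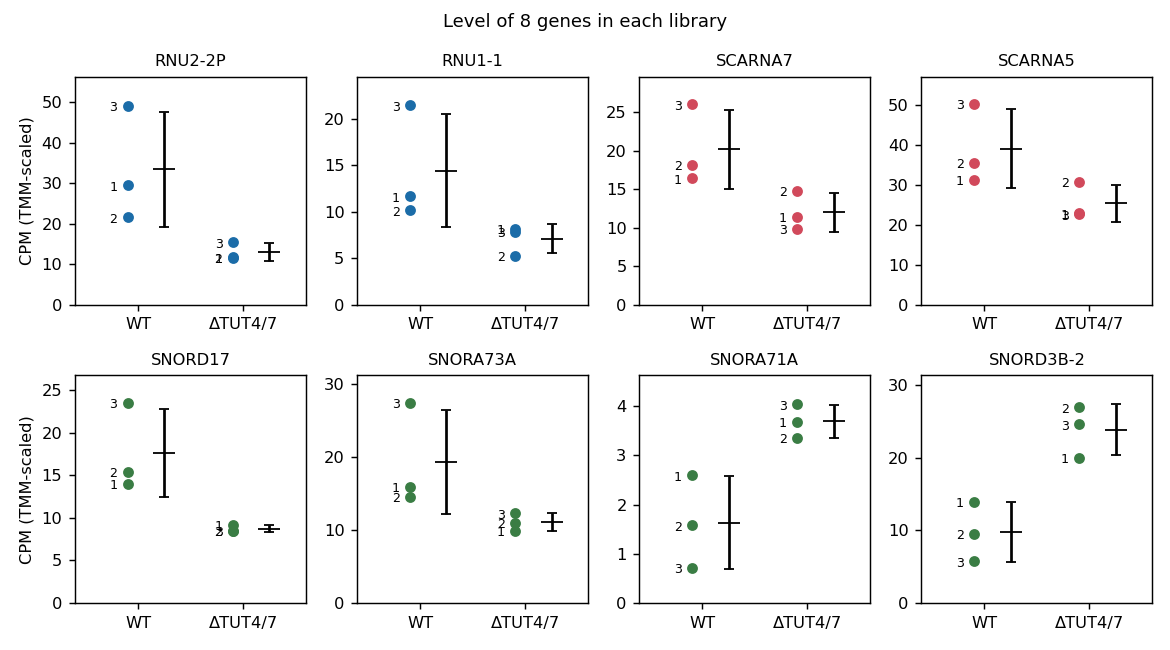
CPM of the TMM-scaled library size (y axis, from 0 in each panel) of 8 genes in each WT and ΔTUT4/7 library. Points are libraries, numbered by replicate, and the dash with bars is the mean ± SD of 3 libraries. WT replicate 3 is the highest point for RNU2-2P, RNU1-1, SCARNA7, SCARNA5, SNORD17 and SNORA73A and the lowest for SNORA71A and SNORD3B-2, and no panel shows overlap between the groups.

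Among the box C/D snoRNA genes the U3 copies SNORD3B-1 and SNORD3B-2 were called higher in ΔTUT4/7 and SNORD17 lower. U3 acts in the earliest cleavages of the ribosomal RNA precursor. SNORD3B-1 measured 17.8, 17.9 and 13.5 CPM in WT and 22.7, 27.4 and 21.3 CPM in ΔTUT4/7, with no overlap and a log2 fold change of 0.54 ± 0.12 (adjusted p = 0.00150), which passed without any 1 library. SNORD3B-2 measured 13.9, 9.54 and 5.74 CPM in WT and 20.002, 27.0 and 24.6 CPM in ΔTUT4/7, with a log2 fold change of 1.32 ± 0.36 (adjusted p = 0.0332). Here WT replicate 3 was the lowest library, and the call was lost without WT replicate 2 (adjusted p = 0.0953) or without any 1 ΔTUT4/7 library (0.0649 to 0.0950).

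SNORD3C, the U3 gene with the highest level, measured 75.3, 56.2 and 75.1 CPM in WT and 85.0, 90.8 and 80.4 CPM in ΔTUT4/7. Its log2 fold change of 0.31 ± 0.12 had an adjusted p of 0.0740, and of 0.0487 without WT replicate 3. SNORD3A overlapped between the groups, at 0.37 ± 0.25. SNORD3D had 452 counts in WT replicate 3 and almost none in the other libraries, although its 218 letters lie at the start of the ranges of SNORD3B-1 and SNORD3B-2 with 2 mismatches, of SNORD3A with 3 and of SNORD3C with 4, so the share of reads given to it is uncertain and no fold is given. The row named U3 covers several loci under 1 symbol, and its log2 fold change was −0.52 ± 0.30 with overlap.

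To take out the division between copies, all U3 rows were summed with AC007952.4, the annotated gene around SNORD3D, an alternative added after seeing the data. U3 then measured 162, 127 and 155 CPM in WT and 185, 212 and 197 CPM in ΔTUT4/7. The groups did not overlap, the mean was 198 ± 13.7 CPM (SD, n = 3) against 148 ± 18.5, and the log2 fold change of 0.42 ± 0.10 had an adjusted p of 0.00850. It passed without any 1 library, with adjusted p from 6.51e-05 to 0.0248, and WT replicate 3 lay between the other WT libraries.

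SNORD17, which guides ribose methylation of ribosomal RNA, was lower, with 13.999, 15.4 and 23.5 CPM in WT and 9.21, 8.51 and 8.48 CPM in ΔTUT4/7. The groups did not overlap and the means differed 2.02-fold, with a log2 fold change of −1.02 ± 0.20 and an adjusted p of 0.00288. It passed without any 1 library and stood at −0.76 (adjusted p = 6.83e-06) without WT replicate 3. SNORD15B overlapped, at −0.26 ± 0.33, and its direction turned without that library, at 0.28. SNORD44, SNORD47 and SNORD48 were not analysed here.

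Among the H/ACA genes SNORA23 and SNORA53 were called lower and SNORA71A higher. SNORA23 measured 1.53, 1.73 and 3.20 CPM in WT and 0.936, 0.876 and 0.970 CPM in ΔTUT4/7, with no overlap, a log2 fold change of −1.24 ± 0.29 and an adjusted p of 0.000957, which passed without any 1 library. SNORA53 measured 3.26, 2.27 and 3.46 CPM in WT and 1.97, 1.80 and 2.04 CPM in ΔTUT4/7, at −0.62 ± 0.21 (adjusted p = 0.0152), a call lost without WT replicate 3 (adjusted p = 0.0771). SNORA73A and SNORA73B, the U17 genes, act in ribosomal RNA precursor cleavage and share 94.1% of their letters. SNORA73A measured 15.9, 14.5 and 27.5 CPM in WT and 9.92, 11.03 and 12.3 CPM in ΔTUT4/7, at −0.82 ± 0.31 with an adjusted p of 0.0789, and at −0.47 with an adjusted p of 0.00144 without WT replicate 3. SNORA73B was at −0.48 ± 0.26 and did not pass with or without that library. Summed over U17 copies, after seeing the data, the log2 fold change was −0.63 ± 0.28 (adjusted p = 0.131), and −0.31 (adjusted p = 0.00292) without WT replicate 3.

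SNORA71A was the H/ACA gene called higher. It measured 2.60, 1.58 and 0.717 CPM in WT and 3.68, 3.35 and 4.03 CPM in ΔTUT4/7, with no overlap and WT replicate 3 lowest. The log2 fold change was 1.24 ± 0.35 with an adjusted p of 0.0127, and 0.84 with an adjusted p of 0.00418 without WT replicate 3, while without WT replicate 2 or ΔTUT4/7 replicate 3 the adjusted p was 0.0604 and 0.0529. SNORA71B, which shares 87.3% of the letters of SNORA71A, measured 1.48, 1.92 and 1.92 CPM in WT and 2.93, 2.47 and 2.15 CPM in ΔTUT4/7, at 0.51 ± 0.22 with an adjusted p of 0.0509. After seeing the data, SNORA71A and SNORA71B were summed with any row named SNORA71, and no other SNORA71 symbol was added. The summed level was 3.51 ± 0.750 CPM in WT and 6.99 ± 0.879 CPM in ΔTUT4/7 (SD, n = 3). Its log2 fold change of 1.02 ± 0.17 (adjusted p = 1.67e-05) passed without any 1 library.

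The remaining H/ACA genes had mean counts of 21.3 to 41.5 and did not pass. SNORA22 (0.44 ± 0.30) and SNORA48 (0.41 ± 0.27) had all ΔTUT4/7 libraries above WT, and SNORA74A, SNORA79B, SNORA59B, SNORA72 and SNORA75 overlapped, with log2 fold changes between −0.61 and 0.26. The median mean count was 238 and 12 of the 42 genes lay under 50, and the smallest change detectable at each count was not tested.

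Many of these genes lie within a longer gene, and each was compared with that host in the same library. Host here means only a gene that contains another. The U1, U2 and U3 genes RNU1-2, RNU1-4, RNU2-2P and SNORD3D are included, although such genes have promoters of their own. For 24 of the 42 genes a host on the same strand with a mean count of 20 or more was found, 20 hosts in all, and 16 of the 24 were intronic in every GENCODE 44 transcript of the host, 6 overlapped an exon of some transcript and 2 hosts were not matched by symbol. The difference of log2 CPM between gene and host was tested with limma over all 1105 nested pairs of the table. Of the 24 pairs 10 were lower in ΔTUT4/7 relative to the host and none higher at an FDR of 0.05, where 19.6% of all nested pairs were called, 8.42% lower and 11.2% higher. The difference was below 0 for 19 of the 24, with a median of −0.75 against 0.03 over all nested pairs, and gene and host had opposite signs in 14. Leaving out the 4 genes that entered through WT alone, 10 of 20 pairs were lower, 16 differences were below 0 and 12 had opposite signs, with the same median. Without WT replicate 3, 9 pairs were lower, 2 higher and the median was −0.57, where 7.08% of all nested pairs were lower and 9.89% higher. The 2 higher pairs were RNU1-2 and RNU1-4, which held equal counts and share the host CROCC. They are 1 measurement, although each is counted among the 24 pairs. Without ΔTUT4/7 replicate 1, 5 pairs were lower and none higher, where 4.89% and 9.05% of all were. Of the 20 hosts 12 were called higher and 3 lower by edgeR, beside 28.6% and 29.0% of all tested genes. Among 14766 tested protein-coding genes 5602 were called higher and 4701 lower.

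Of the 10 pairs called, RNU2-2P and WDR74, a gene for a ribosome assembly protein, differed most. WDR74 measured 19.96, 18.9 and 22.8 CPM in WT and 35.2, 32.7 and 34.1 CPM in ΔTUT4/7, with a log2 fold change of 0.72 ± 0.08 beside −1.40 for RNU2-2P. The difference was −2.08 ± 0.26 with an adjusted p of 0.00151, and −1.80 without WT replicate 3. RNU2-2P overlaps an exon of 2 of the 17 annotated WDR74 transcripts, so that some reads could belong to either.

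RCC1, which encodes the exchange factor of the GTPase Ran, holds both U17 genes in introns. It measured 131, 126 and 132 CPM in WT and 269, 272 and 265 CPM in ΔTUT4/7, with a log2 fold change of 1.05 ± 0.04. SNORA73A was lower relative to it by a log2 difference of −1.85 ± 0.26 (adjusted p = 0.00301) and SNORA73B by −1.52 ± 0.22 (adjusted p = 0.00253). Against SNHG3, the shorter host gene there, the differences were −1.48 and −1.14, and both passed. These 2 genes share a host and are not independent.

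Guide and host also differed for the snoRNA and scaRNA genes called lower above. SNORA23 differed by −1.61 ± 0.35 from IPO7, a nuclear import receptor (adjusted p = 0.0105), SNORD17 by −1.37 ± 0.20 from SNX5 (adjusted p = 0.00194), SCARNA7 by −1.22 ± 0.22 from KPNA4 (adjusted p = 0.00792) and SNORA53 by −1.06 ± 0.26 from SLC25A3 (adjusted p = 0.0184). Each of these hosts was called higher, by log2 fold changes of 0.37 to 0.46. SCARNA13 differed by −1.46 ± 0.31 from SNHG10 (adjusted p = 0.0160), and SNHG10 itself was at 0.50 ± 0.10. SCARNA13 overlaps an exon of 2 of the 12 annotated SNHG10 transcripts, and SNORA53 an exon of 1 of the 16 of SLC25A3. Some reads of these 2 pairs could thus belong to either gene. SCARNA5 differed by −0.72 ± 0.20 from ATG16L1 (adjusted p = 0.0485) and SCARNA2 by −0.43 ± 0.12 from AL356488.2 (adjusted p = 0.0315), but neither call was stable. Leaving out 1 library at a time gave adjusted p from 0.0272 to 0.166 for SCARNA5, which was lost without WT replicate 2 or ΔTUT4/7 replicate 1 or 3, and from 0.0360 to 0.0831 for SCARNA2, which was lost without WT replicate 2 or 3 or ΔTUT4/7 replicate 1 or 2. Without precision weights these were 0.0951 and 0.125. SNORA23, SNORA53 and SCARNA13 lost the call without ΔTUT4/7 replicate 1 (adjusted p = 0.0532, 0.0711 and 0.0600).

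SNORA71A was called higher and so was SNHG17, the long noncoding host of SNORA71A and SNORA71B. SNORA71A overlaps an exon of 12 of the 118 annotated SNHG17 transcripts, so that some reads could belong to either. SNHG17 measured 87.4, 89.4 and 89.3 CPM in WT and 191, 186 and 204 CPM in ΔTUT4/7, with a log2 fold change of 1.12 ± 0.05. The difference from it was 0.35 ± 0.37 for SNORA71A (adjusted p = 0.560), with an opposite sign of −0.22 without WT replicate 3, and −0.61 ± 0.22 for SNORA71B (adjusted p = 0.0805). RNU1-2 and RNU1-4 are placed in CROCC, which was at −2.25 ± 0.12, and so lay above their host by 1.25 ± 0.36 (adjusted p = 0.0562), or 1.61 (adjusted p = 7.42e-05) without WT replicate 3, but their counts are those shared by the 7 identical U1 rows.

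**Figure D4:**
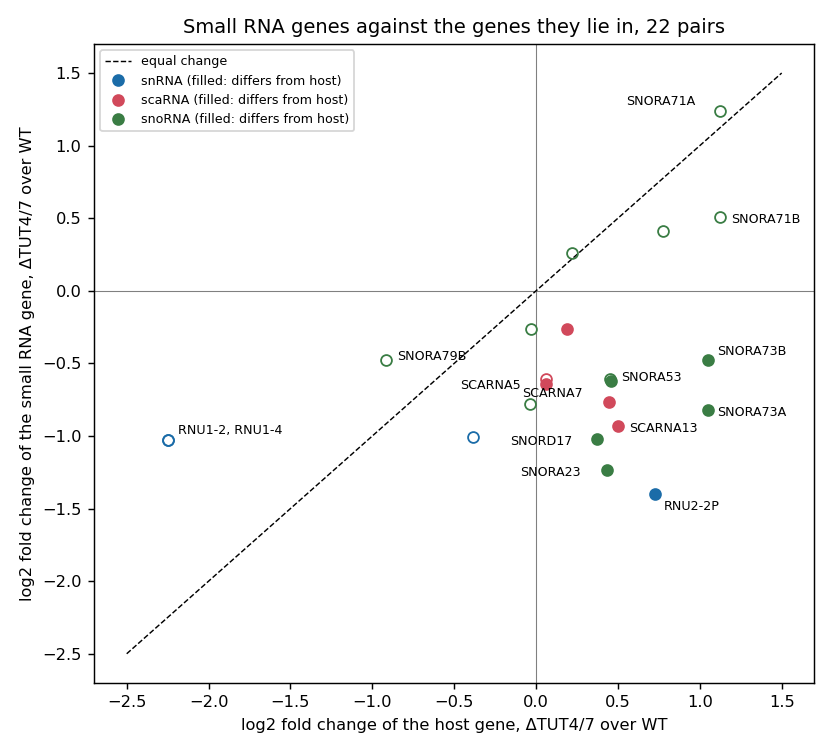
Log2 fold change of the small RNA gene (y axis) against that of the gene it lies in (x axis), ΔTUT4/7 over WT from edgeR, for 22 pairs, with SNORD3D and SCARNA12 left out. Filled points differ from the host in the limma test over 1105 nested pairs, and the dashed line marks equal change. The 10 filled points lie below the line, with hosts between 0.06 and 1.05, and SNORA71A lies near it.

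Genes of the proteins that assemble, modify or trim these RNAs were mostly higher in ΔTUT4/7. Of 109 tested genes in 10 lists 72 were called higher and 13 lower, with a median log2 fold change of 0.40, beside 28.6% and 29.0% of all tested genes. Among 14766 tested protein-coding genes, the nearer background, 5602 were called higher and 4701 lower, with a median of 0.05. The lists were chosen with earlier results of these data known. These values are of RNA, and no protein level was measured in these libraries. All 4 genes of the box C/D core proteins were higher, with FBL, which encodes the methyltransferase fibrillarin, at 0.64 ± 0.05 and NOP56 at 0.59 ± 0.04. All 4 genes of the H/ACA core proteins were higher, with NHP2 at 0.70 ± 0.07. They were led by the pseudouridine synthase gene DKC1, which went from 112 ± 2.76 to 296 ± 0.858 CPM (SD, n = 3), a log2 fold change of 1.40 ± 0.04. Of 10 genes for assembly factors 7 were higher and 1 lower. NOLC1, for a nucleolar and Cajal body chaperone, was at 1.40 ± 0.05 and RUVBL1, for an ATPase of snoRNP assembly, at 0.96 ± 0.05. The gene called lower was SHQ1, for a DKC1 chaperone, at −0.87 ± 0.07, named after its value was seen.

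Of the Cajal body pair WRAP53, which directs scaRNAs to Cajal bodies, was higher at 0.46 ± 0.08, and COIL was at −0.05 ± 0.06. Of 8 genes for snRNA transcription 4 were higher and 1 lower, with ICE1 at 1.48 ± 0.04 and SNAPC4 at 0.58 ± 0.09. The Integrator complex, which cleaves the 3′ ends of snRNA precursors, did not share this direction, with 3 of 14 genes higher, 5 lower and a median of −0.01, INTS13 at 0.64 ± 0.05 and INTS8 at 0.59 ± 0.05 among those higher and INTS9, named after its value was seen, at −0.61 ± 0.09.

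Of 18 genes for snRNA export, the SMN complex and cap 13 were higher and 2 lower, with GEMIN5, which binds snRNAs, at 1.03 ± 0.05 and STRAP at 1.08 ± 0.05. Of 14 Sm and LSm genes 11 were higher and 1 lower, with SNRPB at 0.93 ± 0.04 and SNRPE at 0.61 ± 0.05. Of 20 genes for proteins of single snRNPs 14 were higher and 1 lower, with SNRNP40 at 1.23 ± 0.05 and PRPF6 at 0.90 ± 0.05. Of 15 genes for 3′ end processing 11 were higher and 2 lower, with the nucleotidyltransferase TENT4B at 0.69 ± 0.06 and ZCCHC8, a scaffold of the nuclear exosome targeting complex, at 0.61 ± 0.05.

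**Figure D5:**
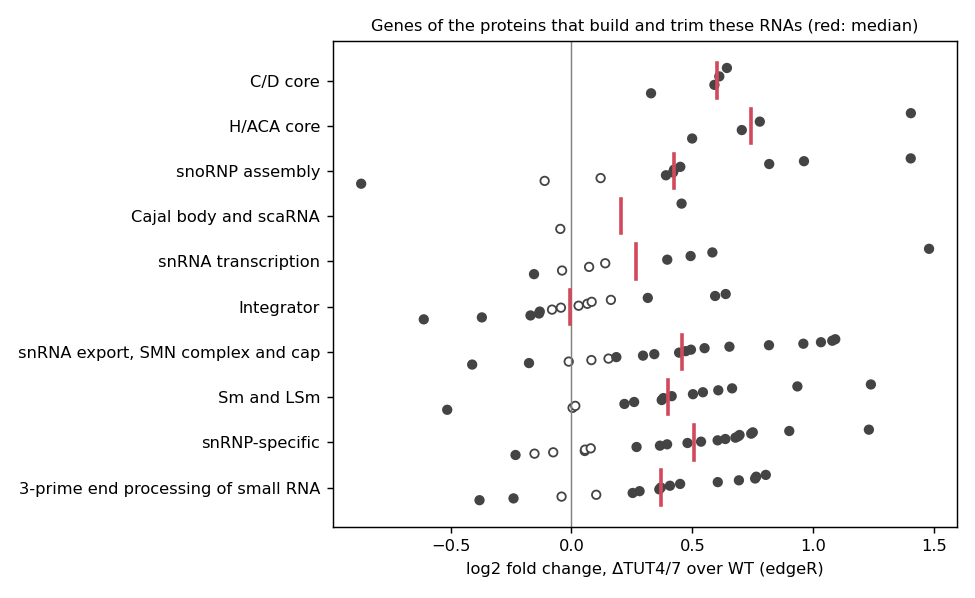
Log2 fold change of ΔTUT4/7 over WT from edgeR (x axis) for 109 genes in 10 lists of proteins that build and trim these RNAs (y axis). Each point is a gene, filled where the adjusted p was under 0.05, and the red line is the list's median. The medians lie between 0.20 and 0.74 except that of Integrator, at −0.01.

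Other short noncoding RNAs were set beside them. RN7SK, which holds the elongation factor P-TEFb inactive, was lower at −0.51 ± 0.16 (adjusted p = 0.0472), and the telomerase RNA gene TERC was higher at 1.41 ± 0.29 (adjusted p = 0.000533). RN7SL1, RN7SL2, RMRP, RPPH1 and RNY1 did not pass, with log2 fold changes of −0.41 ± 0.29, −0.72 ± 0.24, 0.22 ± 0.30, −0.32 ± 0.23 and −0.83 ± 0.44. Without WT replicate 3, RN7SK passed at −0.38 (adjusted p = 0.00778), TERC at 1.07 (0.00189) and RN7SL2 at −0.50 (0.0491). In that fit RN7SL1, RMRP, RPPH1 and RNY1 again did not pass, at −0.14, 0.53, −0.13 and −0.61. The 7 remaining Y RNA and vault RNA genes of the list were not tested.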

How the data were processed

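Per the labels and the study's methods, the authors extracted total RNA (miRNeasy), reduced ribosomal RNA, sequenced it paired-end, aligned reads to hg38 with STAR 2.7.3a and quantified Ensembl 102 genes in Partek Flow 10.0.22. They deposited estimated counts from its expectation-maximisation model, which divides reads between copies and overlapping genes. Strand handling was not given in the sources used here. The authors' own comparison table (p-values, FDR, ratio, fold change, group means) was not used.

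Counts were rounded. The 23952 genes with a largest count above 12, the limit in the study's methods, were tested with TMM scaling and edgeR 4.0.16 (glmQLFit robust, glmQLFTest) in R 4.3.3, group as the only term, Benjamini-Hochberg over all of them. The 6318 untested genes held 0.0962% of counts. Host pairs were tested with voom weights and robust limma 3.58.1. DESeq2 1.42.0 and limma-voom were alternatives. SE comes from the F statistic, SD is over 3 libraries. Depth was 18757228 to 33148937 counts per library. Within groups the chi-square per degree of freedom between libraries was 2.43 to 10.2, so libraries of a group differed by more than sampling noise.

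Checked on simulated data of 22936 genes, the edgeR step called 85.0% of 2-fold and 97.0% of 4-fold changes and 0.0396% of unchanged genes. The host step on 1105 simulated pairs called 76.5% of 17 changed pairs and 0.551% of the others. Of the members, 38 matched GENCODE 44 by symbol and start, and 3 (SNORA72, SNORA75 and U3) are several loci under 1 symbol. Sequences were read from hg38, and promoter windows came from RefSeq.

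Genes named are every scaRNA gene; the highest snRNA (pseudogenes aside) and snoRNA genes; the largest called changes at a mean count of 50 or more; a fixed list of well-known small RNAs; members of the hosts with most members; the largest called host differences; the 2 smallest p per protein list; and other short RNAs. Members and lists were chosen with earlier results of these data known. Alternatives covered scaling, tool, filters, rounding, each library left out, a replicate block, host choice and copy families. Sums over copies were added after seeing the data.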

Additional observations from a re-analysis of the deposited data

How the results depend on the processing

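The counts of small RNA genes called depended on the settings. Leaving out 1 library at a time gave 2 to 5 genes higher (3 with all libraries) and 4 to 18 lower (6), with 1 to 12 snRNA (2) and 0 to 3 scaRNA (1) genes lower and, for snoRNA, 2 to 5 higher (3) and 3 to 5 lower (3). DESeq2 called 21 lower, of which 12 were snRNA and 5 scaRNA genes, and limma-voom called 1 snRNA gene lower. Scaling by library size alone shifted the median of all genes by −0.11 and called 12 lower against 3 higher, with 4 scaRNA and 5 snoRNA genes lower. No count filter left 0 scaRNA genes lower. A minimum mean count of 50 left 1 snRNA gene lower, one of 10 gave 5 genes higher, all snoRNA genes, and leaving out copy families left 0 higher and 0 snRNA genes lower. Counting, after seeing the data, only genes whose mean count reached 20 in each group left 1 snRNA gene lower. Among host pairs, leaving out 1 library gave 0 to 2 higher (0) and 5 to 11 lower (10), and 2 were higher with no weights or at a mean count of 50. The higher pairs were RNU1-2 and RNU1-4 each time, with equal counts and 1 host. Of the protein genes, 8 to 13 were lower without 1 library (13) and 22 under library size alone. The summed level in ΔTUT4/7 was 406 CPM with TMM scaling and 389 per library total. The replicate numbers did not pair the libraries (deviations of the same number correlated at −0.0386 to 0.00785), and a replicate block gave 20 genes lower, 12 snRNA and 7 snoRNA genes lower, 2 host pairs higher, and an adjusted p of 0.0818 for summed U3. Directions that turned without 1 library ranged as follows. RNU4-1 ran from −0.0388 to 0.475, RNU4-2 from −0.54 to 0.11, SNORD15B from −0.53 to 0.28 and SCARNA2 with AL356488.2 from −0.23 to 0.0448. SNORA72 ran from −0.00868 to 0.203. Against hosts SNORD15B ran from −0.44 to 0.28, SNORA59B from −0.18 to 0.26 and SNORA71A from −0.22 to 0.71. RNU4-1 turned without WT replicate 2, SNORA59B without that library or ΔTUT4/7 replicate 1 or 3, and SNORA72 without ΔTUT4/7 replicate 1. The others turned without WT replicate 3, SNORD15B against its host also without ΔTUT4/7 replicate 2. The cause of these changes was not tested. Member counts of 21.3 to 1884 limit the precision of the lowest genes.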
